A study of Mus musculus with 12 samples.

Results

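The array of Gr1- cells sorted from GL261 glioma brains was set against the array of microglia (MG) sorted from normal brains. Both belong to a series of 12 Affymetrix Mouse Gene 1.0 ST arrays, 1 array for each sorted population, and these 2 arrays were chosen by their sample titles. GL261 is a glioma line of C57BL/6 origin. The Gr1- cells came from tumors grown for 2 weeks, Gr1 being a surface antigen of neutrophils and some monocytes, and normal MG were CD11b+/CD45low cells of brains without tumor. The labels give C57BL/6 mice of 7 weeks for both groups, and name no engineered allele. The gate that the Gr1- cells passed beyond the absence of Gr1 is not given in the sources used here. The growth text repeated in the labels describes tumor implantation for all 12 samples, also for those labelled normal. With 1 array per condition there was no replicate error and no test of any difference, so every value below describes these arrays.

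Microglia are the resident macrophages of the brain. They depend on the receptor Csf1r, and in the healthy brain they express a set of genes that other macrophages lack, among them the purinergic receptor P2ry12 and the transcription factor Sall1. In tumors and inflamed brain, interferons induce the MHC class II genes, by which macrophages and dendritic cells present peptides to CD4+ T cells, and many antiviral genes. Natural killer (NK) cells are lymphocytes that kill target cells with granule proteases such as Gzma and Gzmb. Mki67 is present in cells that are in the cell cycle.

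The 4 marker genes separated along these lines. P2ry12 had a log2 value of 11.41 on the tumor Gr1- array and 12.63 on the normal MG array. Sall1 had 12.46 on tumor Gr1- and 12.91 on normal MG. Both genes of MG identity were thus well above background on both arrays. Gzma had 10.30 on tumor Gr1- and 6.79 on normal MG. Mki67 had 9.82 on tumor Gr1- and 7.04 on normal MG. Both were below background on normal MG. Olfactory receptor genes, which most cells outside the nose do not express, gave the level of background. The 95th percentile of these 1027 genes was 8.93 on tumor Gr1- and 9.43 on normal MG. Of all genes, 39.1% were above background on tumor Gr1- and 27.1% on normal MG.

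The log2 difference, tumor Gr1- minus normal MG, was taken for 19937 genes and a difference of at least 2-fold was counted. In tumor Gr1- cells, 685 of all genes (3.44%) passed this level upward and 1208 (6.06%) downward. Leaving out genes below background on both arrays kept 8107, of which 505 (6.23%) were higher and 234 (2.89%) lower. Of the olfactory receptor genes themselves, 1 (0.0974%) was higher and 168 (16.4%) were lower. Most of the genes counted as lower, 974 of 1208, were below background on both arrays. Most of the genes higher and above background, 408 of 505, lay below background on normal MG, so that their difference has only a lower bound. This bound was taken against the background of the normal MG array, or against the gene's own value there, whichever was higher, and is given as at least N-fold. Where a count of list members follows, the count with values below background raised to it stands beside it. Counts as deposited may be read against the 3.44% of all genes higher and 6.06% lower. Counts with values raised to background may be read only against the same setting, in which 205 of 19937 genes were higher and 135 lower. The arrays differed in scale. The median log2 difference was -0.26 over all genes, -0.57 over the olfactory receptor genes, with an SD of 0.48, and 0.55 over 53 ribosomal protein genes, with an SD of 0.33. The SD of the olfactory receptor genes served as a yardstick of the scatter between both arrays and is not a replicate error. Rescaling moved the balance of calls. It was 1040 higher and 716 lower after median centring, 1108 and 502 after quantile normalization, and 1035 and 480 after cyclic loess, so that 59.2%, 68.8% and 68.3% of the calls were higher, against 36.2% as deposited. With values below background raised to it the counts were 205 higher and 135 lower, 60.3% higher.

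**Figure D1:**
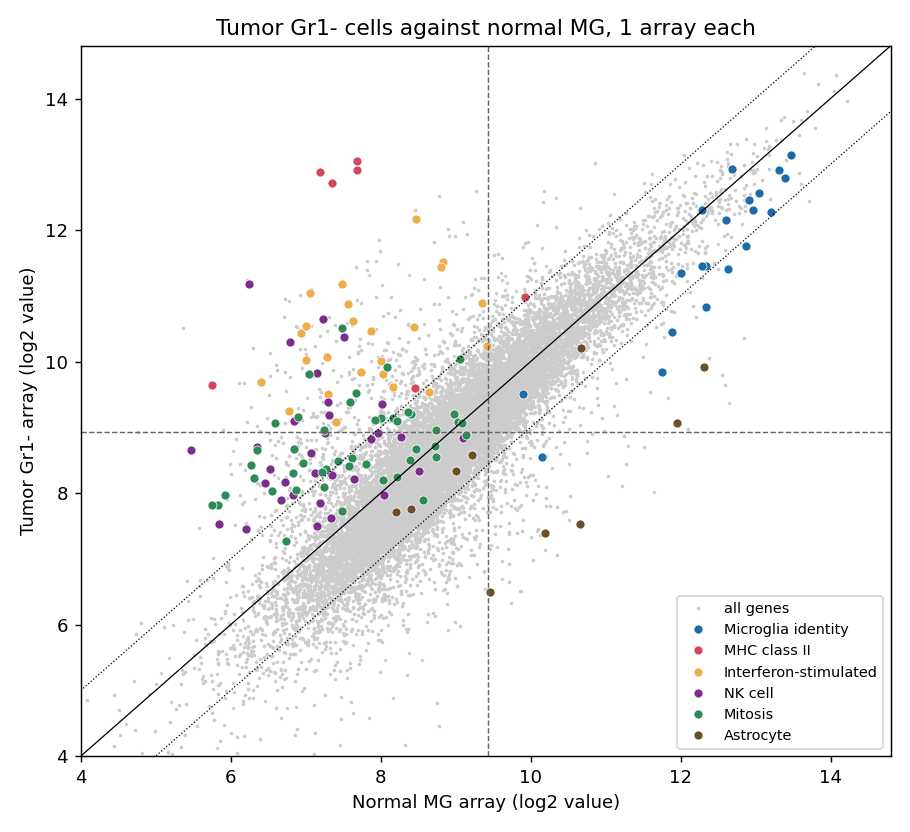
Log2 value of each gene on the tumor Gr1- array (vertical axis) and on the normal MG array (horizontal axis), with members of 6 gene lists in color. The solid line marks equal values, dotted lines a 2-fold difference and dashed lines the background, 8.93 on tumor Gr1- and 9.43 on normal MG; all 7 MHC class II and 22 of 24 interferon-stimulated genes lie above the upper dotted line, while 14 of 20 microglia identity genes lie between the dotted lines and 6 below them.

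As deposited, the 10 largest differences upward included 4 genes of MHC class II presentation, namely H2-Aa, Cd74, H2-Ab1 and H2-Eb1. All 10 were below background on normal MG, so their order was not measured, and the 4 were at least 9.72-fold higher while the other 6 were bounded at 2.10-fold to 3.52-fold. The others were Kmo, an enzyme of tryptophan breakdown, the interferon-inducible genes Ifi205 and Gbp4, the chemokines Ccl5 and Ccl2, and Cd72, a lectin of B cells and macrophages. Kmo had 10.51 on tumor Gr1- and 5.36 on normal MG, and Cd72 had 11.01 on tumor Gr1- and 6.92 on normal MG. Ifi205 had 11.25 and Gbp4 10.96 on tumor Gr1-, against 6.22 and 6.72 on normal MG. The 10 largest downward differences were those of Gm7982, Luzp2, Vmn1r180, Gpm6a, Tmem47, Sparcl1, Atp1b2, Mobp, Plekhb1 and Ttr. All but Sparcl1 and Mobp were below background on tumor Gr1-, so their order was not measured. Against the background of tumor Gr1-, their bounds ran from at least 1.71-fold lower for Ttr to at least 6.56-fold for Gm7982. Several of these are known from neural cells or the choroid plexus. Sparcl1, a protein secreted by astrocytes, had 9.38 on tumor Gr1- and 12.65 on normal MG. Ttr, the transthyretin of the choroid plexus, had 6.65 on tumor Gr1-, below background, and 9.71 on normal MG. In these sorted pools, fewer cells of a type and less RNA per cell cannot be told apart.

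Genes of MG identity were kept on the tumor Gr1- array, at lower levels for some. Of 20 measured genes, 19 were above background on tumor Gr1- and all 20 on normal MG. The list median was 11.96 on tumor Gr1- and 12.62 on normal MG, and the median difference was -0.66, beside -0.26 over all genes. At least 2-fold lower were 6 of 20, against 6.06% of all genes, and 0 were higher. The count lower was 6 with values raised to background, 5 after median centring and 8 after quantile normalization. On tumor MG, the sorted MG of the glioma brains, the median difference from normal MG was -0.93 and 9 of 20 were at least 2-fold lower. Between tumor Gr1- and tumor MG, 0 of 20 were 2-fold apart, where 96.7% of all genes were within 2-fold. Gpr34, a G protein-coupled receptor of MG, had 9.84 on tumor Gr1- and 11.76 on normal MG, a difference of -1.91. Jam2, an adhesion molecule, had 8.54 on tumor Gr1-, below background, and 10.15 on normal MG, at least 2.32-fold lower. Fcrls had 10.83 on tumor Gr1- and 12.33 on normal MG. The fructose transporter Slc2a5 had 10.45 on tumor Gr1- and 11.89 on normal MG. The purinergic receptors P2ry12 and P2ry13 were lower by nearly the same amount, with differences of -1.22 and -1.12. At the other end of the list the arrays were close. Bin1 had 12.30 on tumor Gr1- and 12.28 on normal MG. Crybb1 had 12.92 on tumor Gr1- and 12.69 on normal MG, and Olfml3 13.14 on tumor Gr1- and 13.48 on normal MG. Sall1 differed by -0.45, less than 2-fold.

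Genes shared by MG and other macrophages differed less. None of 20 was 2-fold apart, the differences ran between -0.58 and 0.74, and all 20 were above background on both arrays. Their median difference was 0.07, with a sign that turned under quantile normalization (-0.07) and cyclic loess (-0.09). Csf1r had 13.07 on tumor Gr1- and 13.41 on normal MG. The integrin Itgam, which encodes CD11b, had 12.83 on tumor Gr1- and 12.81 on normal MG. The transcription factor Spi1 had 10.60 on tumor Gr1- and 10.58 on normal MG. The largest differences of the list were those of Ptprc, which encodes CD45, with 12.12 on tumor Gr1- and 11.38 on normal MG, and of Trem2, with 10.69 on tumor Gr1- and 11.27 on normal MG. Genes known to be raised in MG around damage or plaques were higher in part. Of 22 measured, 12 were at least 2-fold higher and 0 lower, against 3.44% of all genes higher, with a median difference of 1.504. With values raised to background 7 passed and the median was 0.62. The list median was 11.14 on tumor Gr1-, 10.74 on tumor MG and 9.18 on normal MG. It was 11.01 on macrophages sorted from brains without tumor. The protease inhibitor Cst7 had 11.53 on tumor Gr1- and 7.83 on normal MG, at least 4.27-fold higher. The lectin Clec7a had 12.02 on tumor Gr1- and 8.90 on normal MG, and the integrin Itgax, which encodes CD11c, had 11.82 on tumor Gr1- and 8.71 on normal MG, with bounds of at least 6.00-fold and 5.23-fold. The receptor Axl was at least 5.69-fold, Lgals3 at least 1.62-fold and Gpnmb at least 1.45-fold higher. The tetraspanin Cd9 had 12.60 on tumor Gr1- and 12.73 on normal MG, and the chemokine Ccl6 10.66 on tumor Gr1- and 10.45 on normal MG.

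**Figure D2:**
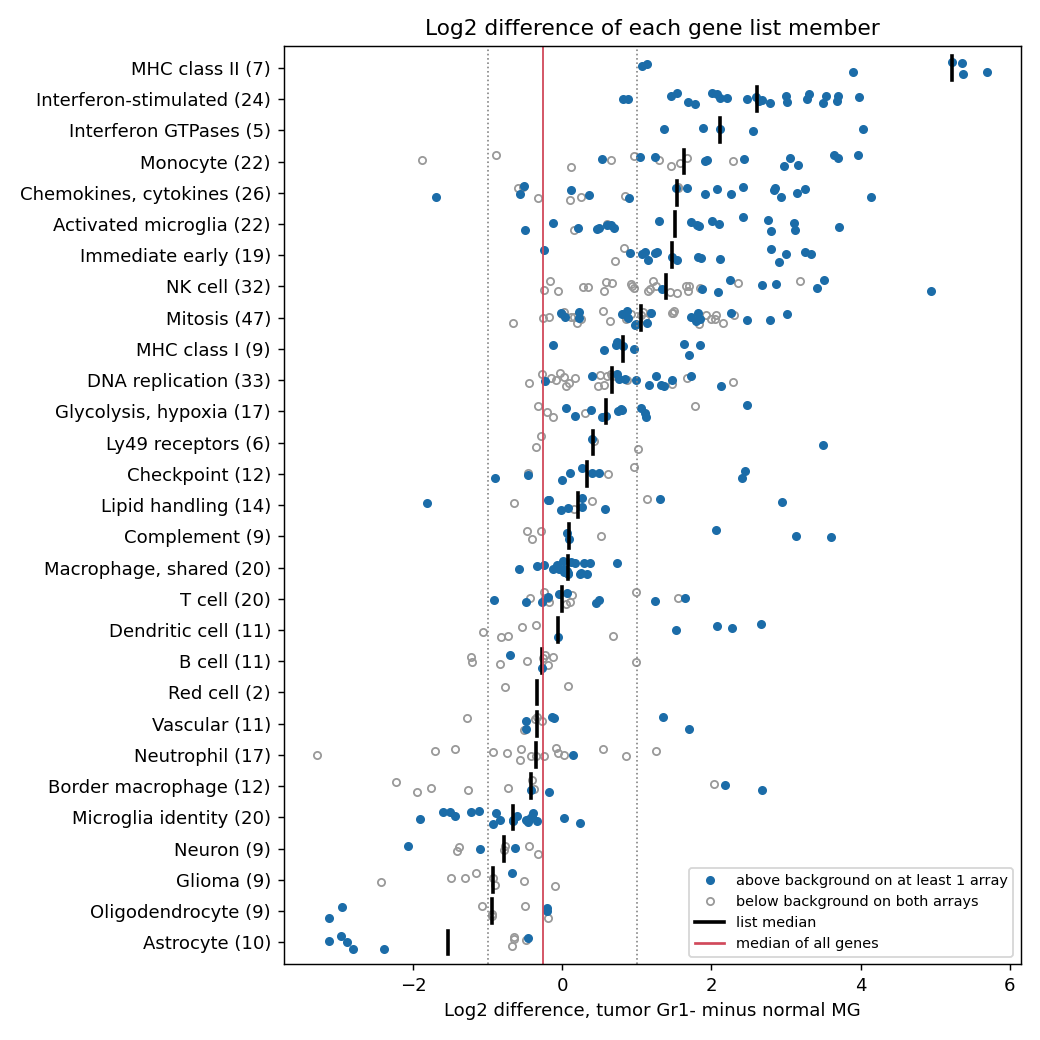
Log2 difference, tumor Gr1- minus normal MG (horizontal axis), of each measured member of 29 gene lists (rows, with the number measured), filled where either array was above background. Black bars are list medians, dotted lines a 2-fold difference and the red line the median of all genes, -0.26; the medians ran from 5.23 for MHC class II to -1.53 for astrocyte genes.

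As deposited, all 7 measured MHC class II genes differed upward by 2-fold or more in tumor Gr1- cells, against 3.44% of all genes, with a median difference of 5.23. The count was 6 after cyclic loess. With values below background raised to it, 5 of 7 passed and the median was 3.28. The list median was 12.72 on tumor Gr1-, 12.48 on tumor MG and 7.68 on normal MG. On macrophages sorted from brains without tumor it was 12.86, so a high level was not particular to the tumor arrays. Between tumor Gr1- and tumor MG, 0 of 7 were 2-fold apart, where 96.7% of all genes were within 2-fold. H2-Aa, an alpha chain, had 12.89 on tumor Gr1- and 7.20 on normal MG, at least 11.0-fold higher. H2-Ab1 and H2-Eb1, which encode beta chains, had 12.72 and 12.91 on tumor Gr1-, against 7.36 and 7.68 on normal MG. The invariant chain gene Cd74 had 13.06 on tumor Gr1- and 7.68 on normal MG, at least 12.3-fold higher. On normal MG these 4 genes were below background. Ciita, the coactivator that turns on the class II genes, had 9.64 on tumor Gr1- and 5.75 on normal MG, at least 1.15-fold higher. H2-DMa, part of the peptide exchange factor, was the member above background on both arrays, with 10.99 on tumor Gr1- and 9.93 on normal MG. H2-Oa, part of its inhibitor, had 9.59 on tumor Gr1- and 8.46 on normal MG, at least 1.12-fold higher. Class II promoters are known for a Y box, an inverted CCAAT box that the factor NF-Y binds. The letters CTGATTGG, on either strand, were searched in the 250 bases before each gene start in RefSeq's table for GRCm38.p6. They stood in 3 of the 4 class II genes matched there and in 1198 (4.43%) of all 27025 genes, or 3.83% of the 32851 windows. The remaining matched gene, H2-DMa, held no match and was also higher on tumor Gr1-. The windows of the 3 with a match are shown, with the Y box in capitals, starting 51, 62 and 46 bases before the gene start.
H2-Aa (chr17:34287824-34288073, minus strand): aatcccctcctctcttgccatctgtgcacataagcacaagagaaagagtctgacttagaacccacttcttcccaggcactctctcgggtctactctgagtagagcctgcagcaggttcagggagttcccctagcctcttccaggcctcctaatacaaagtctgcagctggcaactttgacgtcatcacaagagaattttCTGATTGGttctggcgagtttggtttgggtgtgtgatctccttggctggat
H2-Eb1 (chr17:34305617-34305866, plus strand): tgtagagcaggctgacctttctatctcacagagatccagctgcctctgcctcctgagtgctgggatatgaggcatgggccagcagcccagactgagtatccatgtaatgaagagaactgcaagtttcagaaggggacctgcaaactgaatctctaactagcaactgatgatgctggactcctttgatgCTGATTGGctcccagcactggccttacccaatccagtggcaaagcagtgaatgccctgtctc
H2-Oa (chr17:34092129-34092378, plus strand): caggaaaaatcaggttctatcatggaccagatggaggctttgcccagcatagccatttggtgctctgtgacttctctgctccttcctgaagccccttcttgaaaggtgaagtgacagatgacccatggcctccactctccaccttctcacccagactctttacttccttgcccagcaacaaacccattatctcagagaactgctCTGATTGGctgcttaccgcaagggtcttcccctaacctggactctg
A match of letters describes the window and is not evidence of binding. The class I presentation genes differed less. Of 9 measured, 3 were at least 2-fold higher, and 3 with values raised to background. These were the peptide transporter Tap1 (11.82 on tumor Gr1- and 9.97 on normal MG) and the immunoproteasome subunits Psmb9 (10.79 on tumor Gr1- and 9.10 on normal MG) and Psmb8 (11.25 on tumor Gr1- and 9.61 on normal MG). B2m, the light chain of class I molecules, had 14.38 on tumor Gr1- and 13.65 on normal MG, and Nlrc5, the class I coactivator, had 10.99 on tumor Gr1- and 11.11 on normal MG.

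Interferon-stimulated genes were above background on tumor Gr1- in all 24 measured and on normal MG in 0. As deposited, 22 of 24 were at least 2-fold higher and 0 lower, against 3.44% of all genes higher, with a median difference of 2.61. With values below background raised to it, 11 passed 2-fold and the median was 0.90. The list median was 10.33 on tumor Gr1-, 10.00 on tumor MG and 7.68 on normal MG. Irf7, a transcription factor that amplifies the interferon response, had 11.19 on tumor Gr1- and 7.49 on normal MG, at least 3.37-fold higher. The membrane protein Ifitm3, which blocks virus entry, had 12.16 on tumor Gr1- and 8.48 on normal MG, at least 6.64-fold higher. The genes Oasl2 and Oas2, of the oligoadenylate synthetase family, had 11.05 and 10.88 on tumor Gr1-, against 7.06 and 7.57 on normal MG. The nucleic acid sensor Zbp1 was at least 2.16-fold and Ifit2 at least 1.99-fold higher. The GTPases induced by interferon gamma formed a list of their own, in which all 5 measured members were higher, 4 with values raised to background, with a median difference of 2.11. Iigp1 had 11.10 on tumor Gr1- and 7.07 on normal MG, at least 3.18-fold higher, and Irgm1 11.12 on tumor Gr1- and 9.24 on normal MG, at least 3.23-fold higher. Gbp7 was above background on both arrays, with 10.99 on tumor Gr1- and 9.63 on normal MG. The core of the interferon-stimulated response element, GAAA, any 2 bases and GAAA again on either strand, stood in 7 of 17 matched interferon-stimulated genes and in 4 of 4 matched GTPase genes, against 936 (3.46%) of all 27025 genes. Windows of 3 of these genes are shown as examples, with each match, here on the strand opposite to the gene, in capitals.
Ifit1 (chr19:34640639-34640888, plus strand): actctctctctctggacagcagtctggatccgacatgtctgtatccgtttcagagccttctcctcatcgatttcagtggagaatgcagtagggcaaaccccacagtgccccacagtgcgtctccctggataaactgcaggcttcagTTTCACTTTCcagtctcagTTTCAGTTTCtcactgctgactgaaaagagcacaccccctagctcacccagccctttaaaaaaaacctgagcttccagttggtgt
Ifit3 (chr19:34583279-34583528, plus strand): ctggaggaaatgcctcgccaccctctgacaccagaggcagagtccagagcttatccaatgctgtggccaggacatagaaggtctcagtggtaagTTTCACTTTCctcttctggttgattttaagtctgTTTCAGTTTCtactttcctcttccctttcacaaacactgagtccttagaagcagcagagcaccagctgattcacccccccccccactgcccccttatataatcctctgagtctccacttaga
Rsad2 (chr12:26456453-26456702, minus strand): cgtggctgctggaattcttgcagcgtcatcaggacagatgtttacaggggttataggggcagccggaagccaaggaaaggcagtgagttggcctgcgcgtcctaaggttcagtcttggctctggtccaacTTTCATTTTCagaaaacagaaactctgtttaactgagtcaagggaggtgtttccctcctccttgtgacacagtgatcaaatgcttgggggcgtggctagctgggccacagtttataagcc
Ifit1 and Ifit3 held 2 matches each and Rsad2 held 1. On the arrays, Ifit1 had 10.02 on tumor Gr1- and 7.01 on normal MG, Ifit3 10.62 on tumor Gr1- and 7.63 on normal MG, and Rsad2 10.07 on tumor Gr1- and 7.29 on normal MG.

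Chemokines and cytokines split by member. Of 26 measured, 14 were at least 2-fold higher and 1 lower, with a median difference of 1.53. With values raised to background these were 7 and 0, and the median was 0.09. Ccl2, which attracts monocytes, had 10.93 on tumor Gr1- and 6.78 on normal MG, at least 2.81-fold higher. Ccl12, of the same family, had 10.89 on tumor Gr1- and 7.74 on normal MG, and Ccl4 had 10.56 on tumor Gr1- and 7.62 on normal MG. Cxcl9 and Cxcl10, interferon-induced ligands of a receptor on T cells and NK cells, had 10.94 and 10.98 on tumor Gr1-, against 7.69 and 8.13 on normal MG. Cxcl13, which attracts B cells, was at least 1.60-fold higher. The member lower was Cxcl14, with 8.17 on tumor Gr1- and 9.86 on normal MG, named here after its value was seen. Tgfb1 had 11.69 on tumor Gr1- and 12.20 on normal MG. Of 9 complement genes, 3 were higher and 0 lower, 2 and 0 with values raised to background. C4b had 11.53 on tumor Gr1- and 7.93 on normal MG, and the factors Cfb and Cfp of the alternative pathway were at least 3.31-fold and 1.57-fold higher. The receptors C3ar1 and C5ar1 were close, with differences of 0.06 and 0.09. Of 12 checkpoint genes, the 2 that were higher, 0 with values raised to background, encode the ligands of PD-1. Cd274, or PD-L1, had 10.29 on tumor Gr1- and 7.83 on normal MG, at least 1.804-fold higher. Pdcd1lg2, or PD-L2, had 9.59 on tumor Gr1- and 7.18 on normal MG, at least 1.11-fold higher. Havcr2 and Cd86 differed by 0.10 and 0.27, and Vsir, the inhibitory receptor VISTA, had 11.69 on tumor Gr1- and 12.59 on normal MG.

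NK genes were above background in part on the tumor Gr1- array. None of 32 was above background on normal MG, 9 were on tumor Gr1-, and 23 were below it on both arrays. Of all genes, 27.1% were above background on normal MG and 39.1% on tumor Gr1-. As deposited, 21 of 32 were at least 2-fold higher, against 3.44% of all genes, of which 9 were above background, and 0 were lower. With values below background raised to it, 2 of 32 passed and the list median, 1.39 as deposited, turned to -0.50, the value of any gene below background on both arrays. Summed on the linear scale, the list came to 17301 on tumor Gr1- and 5323 on normal MG. Gzmb had 10.65 on tumor Gr1- and 7.23 on normal MG, at least 2.32-fold higher, and Gzma was at least 1.82-fold higher. The lectin-like receptor Klri2 had 10.37 on tumor Gr1- and 7.51 on normal MG, at least 1.92-fold higher. The receptor Klrb1b had 9.83 on tumor Gr1- and 7.16 on normal MG, at least 1.32-fold higher. Il2rb, a chain of the receptors for interleukins 2 and 15, had 9.10 on tumor Gr1- and 6.84 on normal MG. That value lies above the background of its own array and below that of normal MG, so no bound is given for it. Ccl5, a chemokine of NK and T cells that macrophages also make, had 11.18 on tumor Gr1- and 6.24 on normal MG. Of 6 measured Ly49 receptor genes, which encode MHC class I receptors of mouse NK cells, 2 were at least 2-fold higher. Of these, 1 was above background, and 0 passed with values raised to background. Klra8 had 9.67 on tumor Gr1- and 6.18 on normal MG. These genes are near-identical copies, so that their probe sets may read one another.

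The other arrays placed the NK genes. Without Ccl5, 8 of 31 NK genes were above background on tumor Gr1-, 0 on tumor MG, 0 on tumor macrophages (MP, CD11b+/CD45high), 1 on tumor Gr1+ and 0 on normal MG. Gzma had 10.30 on tumor Gr1-, 6.24 on tumor MG, 6.69 on tumor MP and 6.79 on normal MG. Gzmb had 10.65 on tumor Gr1-, 6.94 on tumor MG, 7.60 on tumor MP and 7.23 on normal MG. Of the 32 NK genes, 21 were at least 2-fold higher on tumor Gr1- than on tumor MG, where 1.13% of all genes were, and 7 of these 21 were above background. Ccl5 was not among these 21, with 10.51 on tumor MG and 10.68 on tumor MP. Klrb1b also differed by less than 2-fold from tumor MG, where it had 9.01, below the background of that array. The array with most NK genes was that of blood macrophage low cells of tumor-bearing mice, with 27 of 31 above background. There, 31.1% of all genes were above background. The 9 genes lay below that array on tumor Gr1-, with differences between -3.66 and -1.86 and a median of -3.18. Against normal blood macrophage high cells, with 14 of 31 and 11.2% of all genes above background, the median difference was -1.85. The NK genes of blood thus stood on a low array in tumor-bearing mice and on a high array in normal mice, and the array of blood Gr1- cells carried 18 of 20 MG identity genes above background, against its label.

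**Figure D3:**
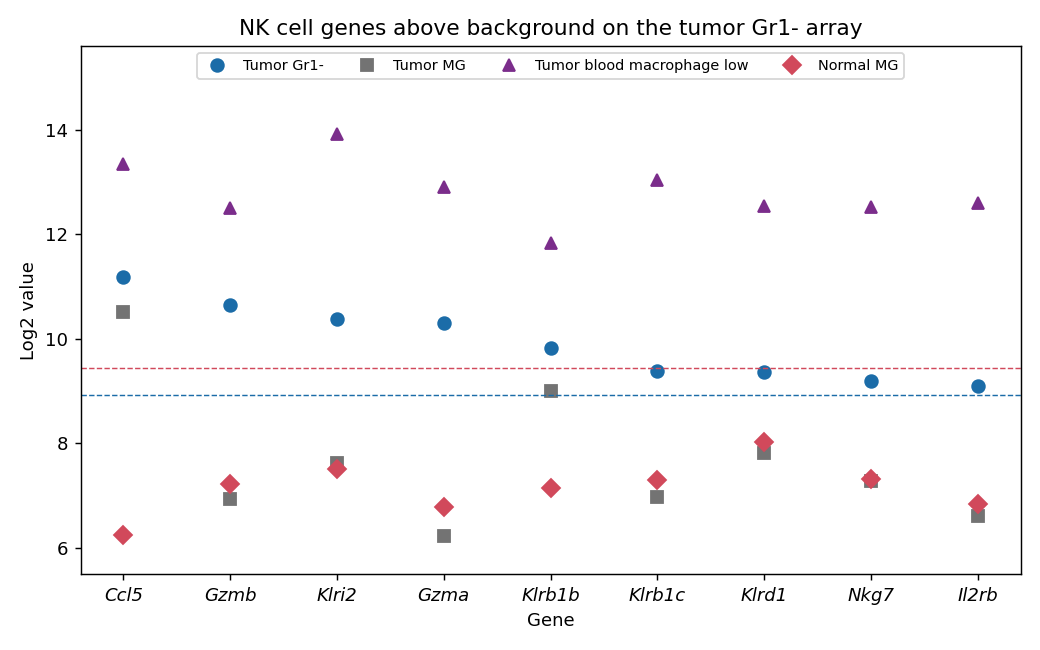
Log2 value (vertical axis) of the 9 NK genes above background on tumor Gr1- (horizontal axis) on 4 arrays, 1 point per array. Dashed lines are the backgrounds, 8.93 for tumor Gr1- and 9.43 for normal MG; the genes were chosen for passing background on tumor Gr1-, where none did on normal MG, and on tumor Gr1- they lie below tumor blood macrophage low cells for all 9.

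Genes of cell division were above background in part on tumor Gr1-. Of 47 mitosis genes, 24 passed 2-fold upward and 0 downward as deposited, against 3.44% of all genes upward, with a median difference of 1.06. With values below background raised to it, 1 of 47 passed and the median turned to -0.50. Above background were 19 on tumor Gr1- and 0 on normal MG, and 10 of the 24 were among these 19. Of all genes, 39.1% were above background on tumor Gr1- and 27.1% on normal MG. Top2a, the topoisomerase that untangles replicated DNA, had 10.51 on tumor Gr1- and 7.49 on normal MG, at least 2.10-fold higher. Mki67 was at least 1.31-fold higher. Smc2, a condensin subunit, had 9.91 on tumor Gr1- and 8.09 on normal MG, and the spindle factor Tpx2 had 9.52 on tumor Gr1- and 7.68 on normal MG, at least 1.39-fold and 1.06-fold higher. Ccna2, a cyclin, and Bub1b, a checkpoint kinase, had 9.07 and 9.15 on tumor Gr1-, against 6.59 and 6.89 on normal MG. Of 33 DNA replication genes, 10 passed 2-fold upward and 0 downward, 7 of them above background, with a median difference of 0.67. With values raised to background 1 passed and the median was -0.50. Pcna, the clamp of the replication polymerases, had 10.49 on tumor Gr1- and 9.02 on normal MG, at least 2.08-fold higher. The helicase subunits Mcm5, Mcm6 and Mcm4 had 9.41, 9.54 and 9.74 on tumor Gr1-, against 7.28, 8.18 and 8.41 on normal MG. Gins2, above background on both arrays, had 9.40 on tumor Gr1- and 9.63 on normal MG.

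Against tumor MG, 0 of 47 mitosis genes were 2-fold apart, while 2 of 33 replication genes were higher on tumor Gr1-. Of all genes, 96.7% were within 2-fold between these arrays, and 1.13% were at least 2-fold higher on tumor Gr1-. Top2a had 10.51 on tumor Gr1-, 10.12 on tumor MG, 10.10 on tumor MP and 7.49 on normal MG. Mki67 had 9.82 on tumor Gr1-, 9.52 on tumor MG, 9.69 on tumor MP and 7.04 on normal MG. The mitosis list median was 8.66 on tumor Gr1-, 8.62 on tumor MG, 8.58 on tumor MP, 7.32 on tumor Gr1+, 8.67 on normal MP and 7.59 on normal MG. The median of normal MP, from brains without tumor, was thus level with those of tumor Gr1-, MG and MP. Over both division lists, 32 of 80 genes were above background on tumor Gr1-, 10 on tumor MG, 21 on tumor MP, 6 on tumor Gr1+, 24 on normal MP and 1 on normal MG. In blood, 37.7% of all genes were above background on Gr1- cells of tumor-bearing mice and 31.1% on tumor blood macrophage low cells. The count of division genes was 35 of 80 on the former and 10 of 80 on the latter, the array with most NK genes. Those 10 were 8 replication and 2 mitosis genes, while the 10 on tumor MG were 6 replication and 4 mitosis genes. The comparisons of tumor Gr1- and of tumor MG with normal MG share the normal MG array. On that array the division genes were at the level of background, and no count of calls was read from both.

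Promoters of mitosis genes are known for inverted CCAAT boxes and for the cell cycle homology region. The letters ATTGG, which also lie inside the Y box above, stood on either strand in 26 of 38 matched mitosis genes and in 37.5% of all 27025 genes. The letters TTTGAA stood in 14 of 38 and in 18.3% of all genes. The windows of Top2a and Mki67 are shown because these had the largest differences of the list, with both motifs in capitals on either strand.
Top2a (chr11:99024190-99024439, minus strand): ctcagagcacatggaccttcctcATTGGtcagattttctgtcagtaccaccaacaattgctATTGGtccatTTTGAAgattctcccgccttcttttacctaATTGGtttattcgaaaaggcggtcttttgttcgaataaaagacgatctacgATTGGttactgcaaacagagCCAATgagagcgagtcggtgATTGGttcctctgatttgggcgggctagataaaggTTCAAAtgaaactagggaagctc
Mki67 (chr7:135716380-135716629, minus strand): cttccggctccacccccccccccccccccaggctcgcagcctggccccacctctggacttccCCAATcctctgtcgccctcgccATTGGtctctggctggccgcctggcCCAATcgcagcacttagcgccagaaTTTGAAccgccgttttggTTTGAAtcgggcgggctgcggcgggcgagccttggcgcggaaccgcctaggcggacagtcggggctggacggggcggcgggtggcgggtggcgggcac
Top2a held 6 matches of ATTGG and 2 of TTTGAA, and Mki67 held 3 of ATTGG and 2 of TTTGAA.

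**Figure D4:**
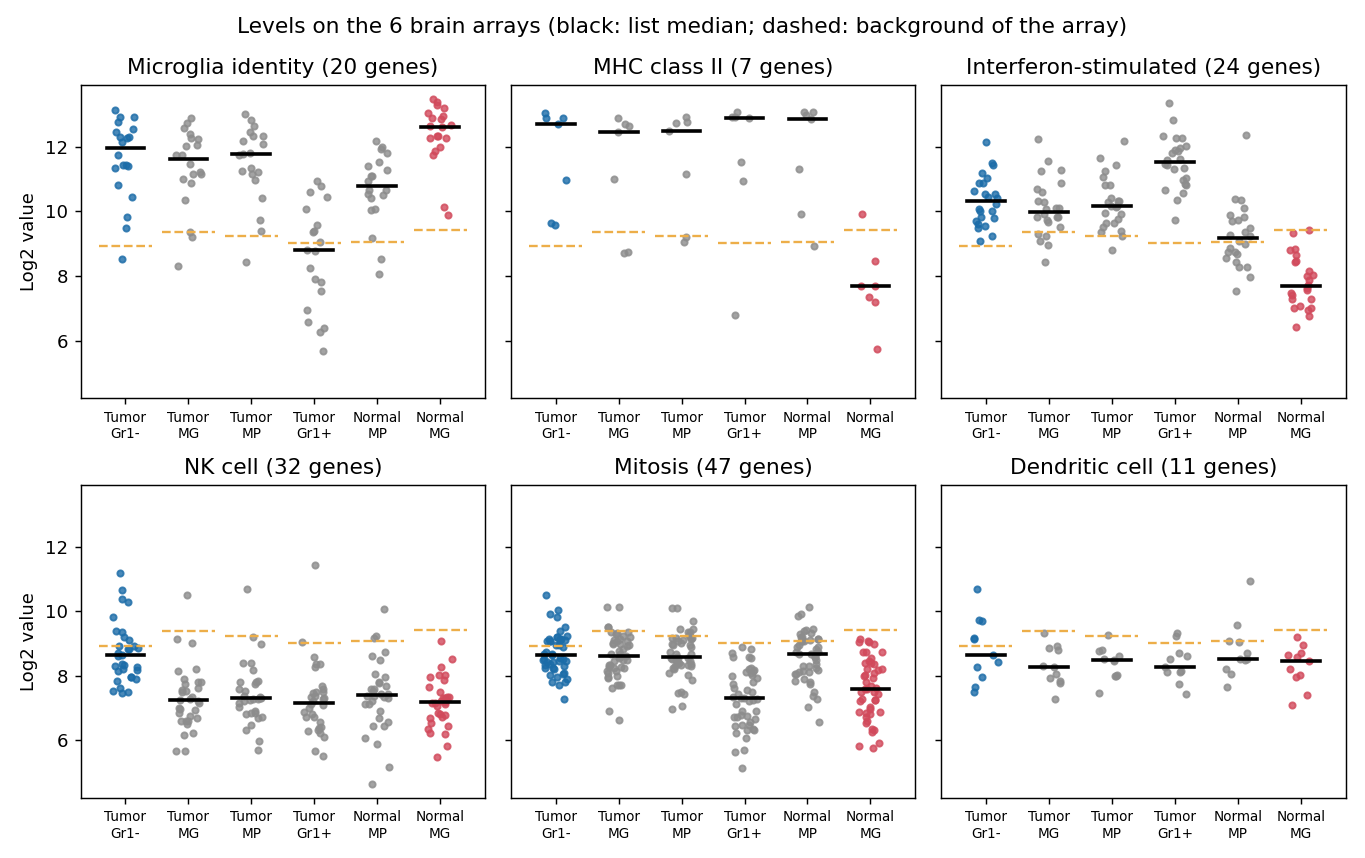
Log2 value (vertical axis) of each member of 6 gene lists on the 6 brain arrays (horizontal axis), 1 point per gene, with the list median in black and the background of the array dashed. The NK genes had a median of 8.63 on tumor Gr1- and 7.24 on tumor MG, whereas the mitosis genes had 8.66 on tumor Gr1- and 8.62 on tumor MG; MHC class II and interferon-stimulated genes were lowest on normal MG.

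Markers of other immune cells were looked at next. Of 11 dendritic cell genes, 4 passed 2-fold upward and 1, below background on both arrays, was lower. With values raised to background 1 was higher. The summed linear levels were 6163 on tumor Gr1- and 3759 on normal MG. Ccr7, which guides dendritic cells to lymph nodes, had 10.70 on tumor Gr1-, 8.87 on tumor MG and 8.03 on normal MG. The growth factor receptor Flt3 had 9.69 on tumor Gr1-, 7.85 on tumor MG and 7.42 on normal MG. The integrin Itgae had 9.72 on tumor Gr1-, 8.32 on tumor MG and 8.20 on normal MG, and the lectin Cd209a had 9.17 on tumor Gr1-, 7.29 on tumor MG and 7.09 on normal MG. All 4 were at least 2-fold higher on tumor Gr1- than on tumor MG, as was Kmo, which had 8.19 on tumor MG. T cell genes had a median of 8.94 on tumor Gr1-, near its background of 8.93, and a highest value of 9.90 there. Above background were 10 of 20 on tumor Gr1- and 4 on normal MG, beside 39.1% and 27.1% of all genes. Of 20 measured, 3 were at least 2-fold higher and 0 lower, with 0 higher when values were raised to background, a median difference of 0.00 and sums of 10005 on tumor Gr1- and 9452 on normal MG. Compared with tumor MG, 5 of the 20 were at least 2-fold higher on tumor Gr1- and 0 lower, where 1.13% of all genes were higher. Cd2, a receptor of T and NK cells, had 8.96 on tumor Gr1-, 7.15 on tumor MG and 7.31 on normal MG. Icos had 9.52 on tumor Gr1-, 7.81 on tumor MG and 8.28 on normal MG. Cd3e, part of the T cell receptor complex, had 9.84 on tumor Gr1- and 9.36 on normal MG, and Cd4 had 9.40 on tumor Gr1- and 9.67 on normal MG. Of 11 B cell genes, 0 were higher and 2 lower, both below background on both arrays. The part of dendritic cells or lymphocytes in the MHC class II and chemokine differences was not tested.

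Of 22 monocyte genes, 16 passed 2-fold upward and 1 downward as deposited, against 3.44% of all genes upward, with a median difference of 1.63. With values below background raised to it, 4 passed upward and the median turned to -0.38. The integrin Itga4 had 10.68 on tumor Gr1- and 6.71 on normal MG, at least 2.37-fold higher. Vimentin (Vim) had 11.69 on tumor Gr1- and 7.99 on normal MG, at least 4.77-fold higher. Ms4a4c, Ahnak and Plac8 were at least 2.13-fold, 2.17-fold and 1.04-fold higher. Other monocyte genes were low, with F13a1 and Vcan below background on both arrays. Compared with tumor MG, 12 of the 22 were at least 2-fold lower on tumor Gr1- and 0 higher, where 2.13% of all genes were lower. The list median was 9.05 on tumor Gr1-, 10.23 on tumor MG, 10.34 on tumor MP, 11.90 on tumor Gr1+ and 7.07 on normal MG. Neutrophil genes were below background on both arrays for 16 of 17, and the one above, the receptor Csf3r, had 11.39 on tumor Gr1- and 11.24 on normal MG. Of 12 genes of macrophages at the brain borders, 3 were higher and 4 lower, 0 and 0 with values raised to background. Mgl2 had 9.02 on tumor Gr1- and 6.35 on normal MG, and Siglec1 10.28 on tumor Gr1- and 8.09 on normal MG, whereas Stab1 had 11.14 on tumor Gr1- and 11.31 on normal MG.

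Neural genes were lower in part on tumor Gr1-. Of 10 astrocyte genes, 5 passed 2-fold downward, 4 with values raised to background, and 0 upward, with a median difference of -1.53 and sums of 4266 on tumor Gr1- and 15914 on normal MG. Slc1a2, a glutamate transporter, had 9.92 on tumor Gr1- and 12.31 on normal MG. The enzyme Aldoc had 9.07 on tumor Gr1- and 11.95 on normal MG. The gap junction genes Gja1 and Gjb6 and the sodium pump subunit Atp1b2 were below background on tumor Gr1-, at least 2.40-fold, 1.44-fold and 3.32-fold lower. Of 9 oligodendrocyte genes, 3 were lower, 2 with values raised to background, and 0 higher. The myelin gene Mbp had 9.65 on tumor Gr1-, 10.93 on tumor MG and 12.60 on normal MG, and Mobp had 8.97 on tumor Gr1-, 9.98 on tumor MG and 12.10 on normal MG. Of 9 neuron genes, 4 were lower, 0 with values raised to background, and 0 higher. Snap25, a protein of synaptic vesicle release, had 7.75 on tumor Gr1- and 9.82 on normal MG. Of 9 glioma and neural progenitor genes, 4 were lower, 0 with values raised to background, and 0 higher, and the one above background, Sox9, had 9.51 on tumor Gr1- and 10.19 on normal MG. Of 11 vascular genes, 2 were higher and 1, below background on both arrays, was lower, and none passed with values raised to background. Flt1 and Kdr were at 9.24 and 10.12 on tumor Gr1-, against 7.54 and 8.77 on normal MG, and Cldn5 was at 9.53 on tumor Gr1- and 10.02 on normal MG.

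Immediate early and stress genes, which respond within minutes to stimulation or tissue dissociation, were higher for 15 of 19, with 0 lower and a median difference of 1.47. With values raised to background 8 were higher and the median was 0.60. Egr1 had 12.60 on tumor Gr1-, 11.21 on tumor MG and 9.27 on normal MG. Fosb had 11.48 on tumor Gr1-, 9.12 on tumor MG and 8.23 on normal MG. Fos and the phosphatase Dusp1 both had 11.91 on tumor Gr1-, 10.48 and 10.52 on tumor MG, and 8.997 and 8.91 on normal MG. The heat shock gene Hspa1a had 9.55 on tumor Gr1-, 8.13 on tumor MG and 6.74 on normal MG. Of the 19 genes, 8 were at least 2-fold higher on tumor Gr1- than on tumor MG, where 1.13% of all genes were. The list median was 10.35 on tumor Gr1-, 9.54 on tumor MG and 8.63 on normal MG. It was higher on 2 other brain arrays, with 10.75 on tumor Gr1+ and 10.89 on normal MP. The part of cell preparation in the other differences was not tested. Glycolysis and hypoxia genes were higher for 5 of 17, 4 with values raised to background, with 0 lower. Pfkp had 10.67 on tumor Gr1- and 8.19 on normal MG, at least 2.36-fold higher, and Ldha, Pkm and Pgk1 differed by 1.12, 1.11 and 1.05. Hk1 and Hk2 differed by 0.17 and 0.38. Of 14 lipid handling genes, 3 were higher and 1 lower, the last a share of 7.14% beside the 6.06% of all genes. With values raised to background these were 2 and 1. The fatty acid receptor Cd36 had 10.60 on tumor Gr1-, 9.07 on tumor MG and 7.66 on normal MG, and Plin2, a lipid droplet protein, had 10.55 on tumor Gr1- and 9.24 on normal MG. The desaturase Scd2 had 9.14 on tumor Gr1- and 10.95 on normal MG, and the transporter Abca1 had 12.75 on tumor Gr1- and 12.49 on normal MG.

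Between tumor Gr1- and tumor MG, 96.7% of all genes were within 2-fold. Of the 505 genes higher than on normal MG and above background, 420 (83.2%) were within 2-fold of tumor MG, 76 at least 2-fold above it and 9 at least 2-fold below it. Of the 234 lower genes, 176 (75.2%) were within 2-fold. The 505 and 234 genes were chosen on the tumor Gr1- array, which both comparisons share. The 76 genes included 7 of the NK list, 4 of the dendritic cell list, 2 of the T cell list, 8 of the immediate early list and 4 chemokines. They held 1 of the DNA replication list and 0 of the mitosis list.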

How the data were processed

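RNA of each sorted population was hybridised to 1 array. The authors used Expression Console of Affymetrix to make the values, with RMA named in the submitters' processing notes without a version. What they deposited is log2 of a linear value that moves in steps of 0.01 and is never below 1. Neither the genome build nor the release of the annotation is given in the sources used here. Of 28944 probe sets, 21789 carried 1 gene symbol, 1621 several and 5534 none, and only the first were used, with the brightest probe set for each of 999 genes that had several. A gene of the study is not reported here.

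Values were not rescaled or filtered. The methods name adjusted p-values, which single arrays cannot give, so a 2-fold difference was counted. The number of arrays limits the precision. The members and the 29 lists (464 of 510 genes measured, the others not analysed here) were chosen with earlier results of these data known. Named genes are the 4 markers, the 10 largest differences each way among genes whose brighter array was above background, and per list up to 6 largest such differences and up to 3 genes closest to 0 among those above background on both arrays. Exceptions are named as such or are shown for their promoters. The counting was tested on simulated data. Alternatives were other scalings, the mean of probe sets, filters, floors and thresholds. Rescaling was done with limma 3.58.1 in R 4.3.3 and all else with pandas 2.3.3 in Python 3.11.15.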

Additional observations from a re-analysis of the deposited data

Results flagged for a closer look

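Probe sets that carry several gene symbols were left out of all comparisons. Of these 1621 probe sets, 48 (2.96%) were at least 2-fold higher on tumor Gr1- and above background there, and 310 (19.1%) were at least 2-fold lower and above background on normal MG. They hold signal outside the main measurement, and no gene can be named from them. Each condition has 1 array, so no sample was set against others of its group.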

How the results depend on the processing

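Rescaling changed the counts and not the direction of the MHC class II, interferon, NK, mitosis or MG identity medians. Genes at least 2-fold higher and lower numbered 1040 and 716 after median centring, 1108 and 502 after quantile normalization and 1035 and 480 after cyclic loess. They numbered 205 and 135 with values below background raised to it, 1638 and 4191 at 1.5-fold and 187 and 175 at 4-fold, and 234 lower among genes above background. The NK median was 1.94 after quantile normalization, 1.88 after cyclic loess and 2.68 over genes above background, where 9 NK and 10 mitosis genes were at least 2-fold higher and the replication median was 1.16. Replication genes at least 2-fold higher numbered 17 after quantile normalization and 17 after cyclic loess. With background at the 99th percentile, 4399 genes were above it on tumor Gr1- and 2815 on normal MG. Raising values to the background of each array gives -0.50 by construction to a gene below it on both, since the 2 levels differ by that much. The medians then were -0.50 for NK, mitosis and replication genes, -0.38 for monocyte genes, 3.28 for MHC class II and 0.90 for interferon-stimulated genes, with 2 NK, 1 mitosis, 1 replication and 11 interferon-stimulated genes at least 2-fold higher. The sign turned for Il2rb (-0.34), Cd2 (-0.48), Mcm5 (-0.023), Rfc4 (-0.12), Pole (-0.27), Ccna2 (-0.37), Bub1b (-0.28), Emilin2 (-0.48), Mgl2 (-0.41), Cd209a (-0.27) and Flt1 (-0.20), whose tumor Gr1- values lie below the background of normal MG. Of 1074 values of 179 named genes under the alternatives, 975 moved by less than the yardstick, 88 by more and 11 changed sign. No paired analysis was possible because each group has 1 array, and for the same reason no replicate could be left out.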

Other observations

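The 76 genes higher on tumor Gr1- than on both the tumor MG and the normal MG array held further groups, named here after their values were seen. Of the 76, 33 were members of a list and 17 were above background on tumor MG. Gimap4, a GTPase of lymphocytes, had 9.90 on tumor Gr1-, 7.34 on tumor MG and 6.95 on normal MG, and 12.76 on tumor blood macrophage low cells. Stat4, which carries the interleukin 12 signal in NK and T cells, had 9.87 on tumor Gr1-, 7.66 on tumor MG and 7.37 on normal MG. The dendritic cell lectin Ly75 had 9.78 on tumor Gr1-, 7.51 on tumor MG and 7.12 on normal MG. The chemokines Ccl17 and Ccl22, which bind the same receptor on T cells, had 9.91 and 9.45 on tumor Gr1-, 8.78 and 8.45 on tumor MG, and 8.504 and 7.87 on normal MG. The receptor Kit had 10.27 on tumor Gr1-, 8.49 on tumor MG and 7.89 on normal MG. The heat shock genes Hsph1 and Hsp90aa1 had 10.63 and 12.34 on tumor Gr1-, 8.94 and 11.26 on tumor MG, and 8.78 and 10.65 on normal MG. The histone genes H3c4 and H2bc8 had 10.19 and 10.31 on tumor Gr1-, 8.14 and 8.59 on tumor MG, and 8.29 and 8.99 on normal MG. Of the mitosis list 0 of 47 were 2-fold apart from tumor MG, and of the replication list 2 of 33 were higher on tumor Gr1-. Of all genes, 96.7% were within 2-fold of tumor MG and 1.13% were higher on tumor Gr1-.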
